A study of Mus musculus with 13 samples.

Results

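The BCL2 family decides whether a cell under stress keeps its mitochondria intact, and its transcripts were followed in mouse embryonic fibroblasts (MEFs) made senescent and then given Fucoidan-FV. The members are 10 genes chosen by symbol and matched to the GRCm39 annotation, out of 57010 genes listed in each library, and all 10 passed the filter on low counts that left 15034 genes for testing. They comprise 4 survival genes (Bcl2, Bcl2l1, Bcl2l2 and Mcl1), the 2 effectors (Bax and Bak1) and 4 BH3-only genes (Bbc3, Pmaip1, Bcl2l11 and Bid). The RNA-Seq covered 4 groups of WT MEFs, each with cells labelled as mouse 4, mouse 5 and mouse 6. Control MEFs were not treated, senescent MEFs had been exposed to 2 μM etoposide for 24 h and cultured for 5 more days, and the other groups were such senescent MEFs given Fucoidan-FV at 100 or 300 μg/mL for 12 h before RNA was extracted. Etoposide is a topoisomerase poison that breaks DNA, and Fucoidan-FV is made up of sulfated sugars extracted from the brown seaweed Fucus vesiculosus. Etoposide is shared by all but the control group, and Fucoidan-FV was given only to senescent cells, so its effect on cells that are not senescent was not analysed here. MEFs are mixed primary cultures of embryos from which the viscera were removed, not a single cell type.

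Healthy cells hold the effectors BAX and BAK in check through survival proteins that bind them. BH3-only proteins, whose levels rise after DNA damage, loss of growth factors or faulty protein folding, occupy the groove of the survival proteins or engage the effectors directly. Active BAX and BAK make pores in the outer mitochondrial membrane, cytochrome c escapes, and APAF1 and caspase-9 start the proteolysis that kills the cell. Senescent cells are known for resisting this kind of death, and BCL-XL (the product of Bcl2l1) and BCL-W (Bcl2l2) are among the proteins targeted by drugs that kill them. All values below are of RNA, and protein, its modification and its binding were not measured here.

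Members of the family share short stretches of sequence. The BH3 stretch, for which the BH3-only proteins are named, takes part in binding between members, so it is shown here for each member in which it was found. The BH3 core pattern was searched in the translated coding sequence of 1 transcript per gene, and it consisted of an aliphatic residue (valine, isoleucine, leucine, methionine or alanine), any 3, leucine or methionine, any 2, an aliphatic residue of the same set, glycine or alanine, aspartate, any 1 and valine, isoleucine, leucine, methionine, phenylalanine or tryptophan. It was found exactly once in each of 9 members and in none of the coding sequence of Pmaip1, and 266 of the 22263 coding transcripts searched (1.19%) held it at least once. Each line gives 42 coding bases, 5′ to 3′ on the strand of the gene, from the GENCODE transcripts of GRCm39, with the 18 bases from the leucine or methionine codon to the aspartate codon in capitals.
Bcl2: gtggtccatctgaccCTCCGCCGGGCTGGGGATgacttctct
Bcl2l1: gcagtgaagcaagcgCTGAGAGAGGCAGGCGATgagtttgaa
Bcl2l2: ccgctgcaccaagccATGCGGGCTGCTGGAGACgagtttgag
Mcl1: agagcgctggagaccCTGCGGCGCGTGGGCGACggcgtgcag
Bax: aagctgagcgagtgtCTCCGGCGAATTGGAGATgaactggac
Bak1: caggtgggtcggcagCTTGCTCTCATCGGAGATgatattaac
Bbc3: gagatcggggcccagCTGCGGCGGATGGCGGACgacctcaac
Bcl2l11: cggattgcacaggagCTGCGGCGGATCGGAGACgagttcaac
Bid: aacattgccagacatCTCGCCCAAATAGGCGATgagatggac

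The stretch of Bcl2l1 is in exon 2 of its transcript, at chr2:152671617-152671658 on the minus strand, and that of Bak1 is in exon 4, at chr17:27241505-27241546 on the minus strand. The stretch of Bcl2l2 is in exon 3, at chr14:55121959-55122000 on the plus strand, and that of Bax is in exon 3, at chr7:45115421-45115462 on the minus strand. With Pmaip1, these are the members described at most length below. A match is a description of the sequence, and the missing match in Pmaip1 says only that this pattern, whose first residue may not be phenylalanine, is not in that coding sequence.

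The authors deposited expected counts, which are RSEM's estimates of the reads of each gene, and TPM, which also divides by transcript length and so allows levels of different genes to be compared. The total of a library lay between 22782536 and 31278750 counts. Control mouse 5 had a pair of libraries, 5(1) and 5(2), whose counts were summed. A level in CPM (counts per library total, times a constant) was scaled by TMM factors. Each log2 fold change, with its standard error (SE), and each adjusted p is from 1 edgeR quasi-likelihood fit of the 4 groups, and the adjustment is that of Benjamini and Hochberg over the 15034 genes. A gene is said to have risen or fallen, or to have been called, only where its adjusted p was under 0.05, and it is a differentially expressed gene (DEG) where its log2 fold change was also beyond 1 in size. The samples are numbered by mouse, and p-values rest on the spread between the 3 cultures within a group, which was estimated for each gene over all 4 groups together. The spread of control samples therefore also enters the comparisons of a dose with senescent MEFs. In such bulk RNA fewer cells of a type and less RNA per cell cannot be told apart.

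Of the fibroblast markers, 8 of 10 were at 1 TPM or more in control MEFs (all but Dcn and Lum), 9 of 10 in senescent MEFs and all 10 at both doses. Some markers of other cell types moved with the groups. The 7 macrophage markers together made 0.26 to 3.97 TPM in control, 2.51 to 11.9 TPM in senescent and 7.76 to 19.7 TPM in treated samples, with 1, 4 and 5 of them at 1 TPM or more. The 5 epithelial markers, mostly Krt19, summed to between 23.96 and 50.9 TPM in control, 12.8 and 23.2 TPM in senescent and 2.63 and 5.92 TPM in treated samples. The 4 chondrocyte markers, mostly Col2a1, summed to between 211 and 281 TPM in control and to between 44.8 and 105 TPM in the other groups. The 6 skeletal muscle markers made 202 to 279 TPM in control, 242 to 316 TPM in senescent and 122 to 211 TPM in treated samples, and the 5 neural markers 46.6 to 88.8, 44.6 to 48.3 and 67.1 to 118 TPM. Endothelial markers made at most 4.28 TPM with Cldn5 at 0, and erythroid markers at most 1.2 TPM with Hba-a1 and Hbb-y at 0. The part of such cells in the results on the members was not tested.

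Each of the 10 members was detected in each of the 12 samples, at levels per length that ran from 0.65 TPM for Bcl2 to 606 TPM for Bax. In control MEFs Bax led with 349 ± 18.4 TPM (SD, n = 3), followed by Bak1 at 134 ± 9.41 TPM, Pmaip1 at 116 ± 89.7 TPM, Bcl2l1 at 80.3 ± 9.14 TPM and Mcl1 at 68.6 ± 11.1 TPM. Bcl2l2 followed at 31.1 ± 6.10 TPM, Bid at 26.6 ± 5.50 TPM, Bbc3 at 16.5 ± 0.596 TPM, Bcl2l11 at 4.92 ± 2.08 TPM and Bcl2 at 1.06 ± 0.150 TPM. The ranges of neighbours overlapped between Bak1 and Pmaip1, Pmaip1 and Bcl2l1, Bcl2l1 and Mcl1, and Bcl2l2 and Bid, so these pairs are not ordered by the 3 mice. Bcl2, the founding survival gene, was the lowest member in all 4 groups (0.65 to 1.53 TPM, or 54 to 213 counts per sample), and the survival RNA of these cells was mostly Bcl2l1, Mcl1 and Bcl2l2. In senescent MEFs Pmaip1 took the second place (373 ± 123 TPM) below Bax (473 ± 116 TPM), and the ranges of these genes overlapped there.

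**Figure D1:**
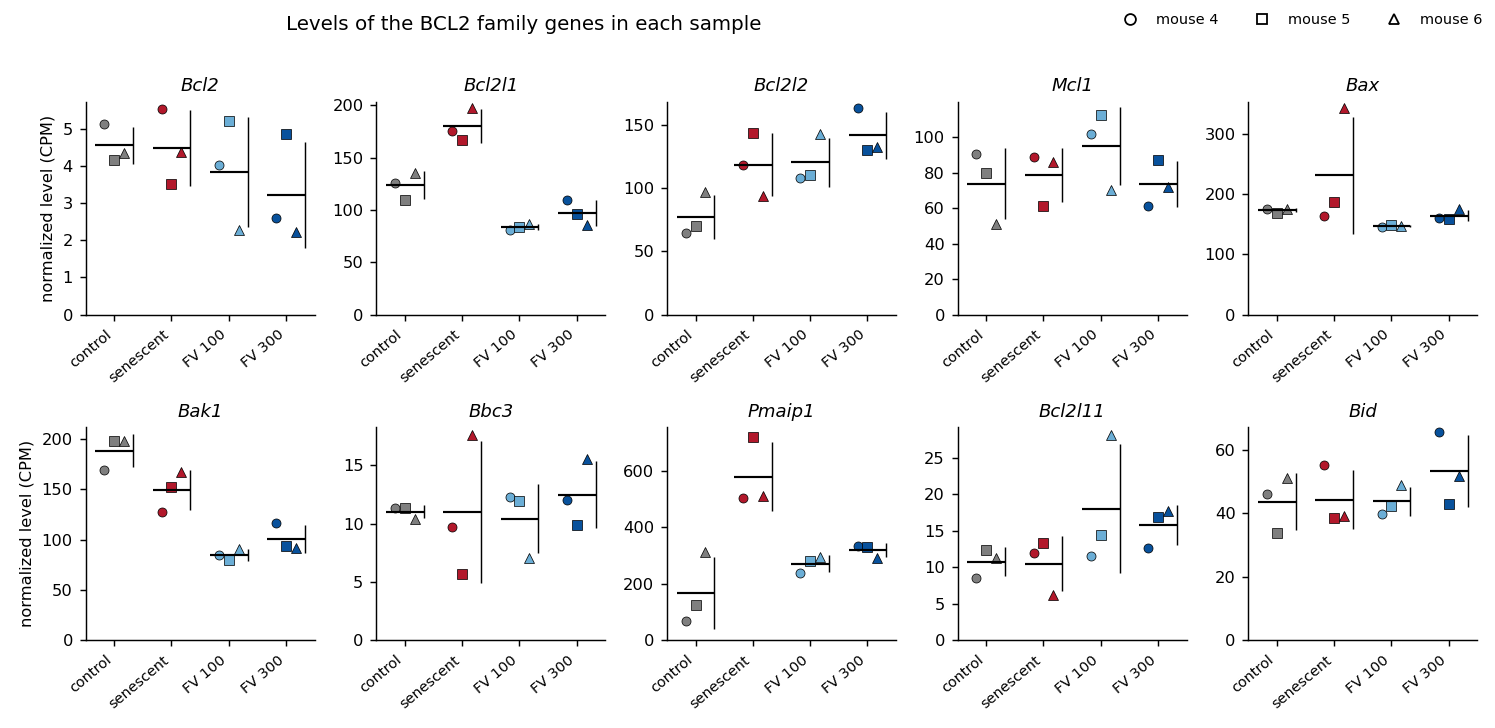
Normalized level (CPM) of each member on the vertical axis, which starts at 0 and has its own scale in each panel, in control MEFs, senescent MEFs and senescent MEFs with Fucoidan-FV at 100 and 300 μg/mL. Points are mice (circle 4, square 5, triangle 6), horizontal lines means and vertical lines SD over 3 mice; Pmaip1 is highest in the 3 senescent samples, and Bcl2l1 and Bak1 have their lowest means at 100 μg/mL.

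In senescent against control MEFs, the question was what the survival and death genes do as the cells become senescent after DNA damage. The BH3-only gene Pmaip1 and the survival gene Bcl2l1 rose, and none of the 10 fell. Thus 2 of 10 were called, where 11.7% of all genes tested were. With the replicate block 1 of 10 was called, beside 1522 of the 15034 genes tested. Pmaip1 alone was a DEG (8.42% of all genes tested were DEGs). The values of the 3 mice of each group did not overlap for 3 members, Pmaip1, Bcl2l1 and Bak1, against 27.1% of all genes tested. The median log2 fold change was 0.06 over the members and 0.07 over all genes tested.

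Pmaip1 (ENSMUSG00000024521) encodes NOXA, a BH3-only protein that binds MCL1 and is known as a target of p53. It was at 67.9 CPM in mouse 4, 127 CPM in mouse 5 and 312 CPM in mouse 6 of the control group, and at 506, 721 and 512 CPM in the same mice of the senescent group. Each senescent sample lay above each control sample, although the control samples themselves were far apart and mouse 6 was the highest of them. Its mean of 169 ± 127 CPM became 580 ± 122 CPM. This is a 3.43-fold rise, or 1.78 on the log2 scale (SE 0.40, 95% interval 0.92 to 2.64, adjusted p = 0.0115). Without control mouse 5 the adjusted p was 0.0638, and without control mouse 6 the log2 fold change was 2.58 (adjusted p = 0.000291). A fit of these 2 groups alone gave an adjusted p of 0.0877.

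Bcl2l1 (ENSMUSG00000007659, chr2:152622582-152673655, minus strand) encodes BCL-XL, a survival protein that holds BAX and BAK in check. It was at 126, 110 and 135 CPM in control mice 4, 5 and 6 and at 176, 167 and 198 CPM in the senescent ones, so the groups did not overlap. The rise was by a log2 fold change of 0.54 (SE 0.16, 95% interval 0.19 to 0.89, adjusted p = 0.0442), or 1.46-fold, near the threshold of the test. The adjusted p rose above 0.05 on leaving out control mouse 4 (0.0919), control mouse 5 (0.131) or senescent mouse 4 (0.0807), with the replicate block (0.0673), and with library 5(1) or 5(2) alone for control mouse 5 (0.0577 and 0.0547). The same held in the fit of the 2 groups alone (0.177) and in the fit of all genes with at least 1 count (0.207). Its log2 fold change lay between 0.45 and 0.63 in all 18 alternatives.

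Of the other survival genes, Bcl2l2 (ENSMUSG00000089682, chr14:55120778-55126551, plus strand), which encodes BCL-W, was at 64.3, 69.6 and 96.8 CPM in control mice and 119, 143 and 93.4 CPM in senescent mice. Its groups overlapped through mouse 6, which was the highest control and the lowest senescent sample. The log2 fold change of 0.62 (SE 0.22, adjusted p = 0.0829) was not called in the main fit, and it was called in 6 of 18 alternatives, among them those that left out mouse 6 of the control group (0.83, adjusted p = 0.0172) or of the senescent group (0.77, adjusted p = 0.0124). Mcl1, a survival gene whose protein is short-lived and is bound by NOXA, was at 51.3 to 90.2 CPM in control and 61.3 to 88.6 CPM in senescent mice, with a log2 difference of 0.09 (95% interval −0.46 to 0.64). Bcl2 was at 4.18 to 5.14 CPM in control and 3.53 to 5.56 CPM in senescent mice, with a log2 difference of −0.02 (95% interval −0.98 to 0.94), an interval that leaves room for a change by nearly 2-fold either way.

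The effector Bak1 (ENSMUSG00000057789, chr17:27238784-27247983, minus strand) was lower in each senescent sample (127, 152 and 167 CPM in mice 4, 5 and 6) than in each control sample (169, 198 and 198 CPM), by −0.34 on the log2 scale (SE 0.17, adjusted p = 0.230), which was not called. Without senescent mouse 6 the log2 difference was −0.42 (adjusted p = 0.0480). Bax, the other effector and itself a p53 target, was at 176, 169 and 175 CPM in control mice and at 164, 186 and 344 CPM in senescent mice 4, 5 and 6. Its mean was higher by 0.41 on the log2 scale (SE 0.23, adjusted p = 0.289), and the senescent group's SD of 97.8 CPM came from mouse 6. Without that library the log2 difference was 0.02 (adjusted p = 0.945). The same library stood apart over all genes: the median of its longest 10% of genes was shifted by −0.72 on the log2 scale from the mean of the libraries and that of its shortest 10% by 0.85, against −0.18 to 0.29 and −0.51 to 0.44 in the other 12 libraries. The transcripts of Bax are short, with RSEM lengths of 852 to 901 bases. With offsets for transcript length, GC content and single-transcript sequence in the fit the log2 difference was 0.07 (SE 0.11, adjusted p = 0.693). The offsets were fitted on these same samples and may also take out differences between groups. The cause of the high Bax value in senescent mouse 6 was not tested.

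The 3 remaining BH3-only genes were not called, and their groups overlapped. Bbc3, which encodes the p53 target PUMA, was at 10.4 to 11.3 CPM in control mice and at 9.68, 5.65 and 17.6 CPM in senescent mice 4, 5 and 6, with a log2 difference of −0.0046 (95% interval −0.84 to 0.83). Bcl2l11, which encodes BIM, was at 8.58 to 12.4 CPM in control and 6.18 to 13.4 CPM in senescent mice (log2 difference −0.04, 95% interval −0.85 to 0.77). Bid, whose product is cut by caspase-8 and links death receptors to mitochondria, was at 33.9 to 51.3 CPM and 38.7 to 55.2 CPM (log2 difference 0.02, 95% interval −0.48 to 0.53). Bcl2l13, on the opposite strand, covers 17.6% of the exonic bases of Bid and was counted at 5.31 to 23.5 CPM.

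**Figure D2:**
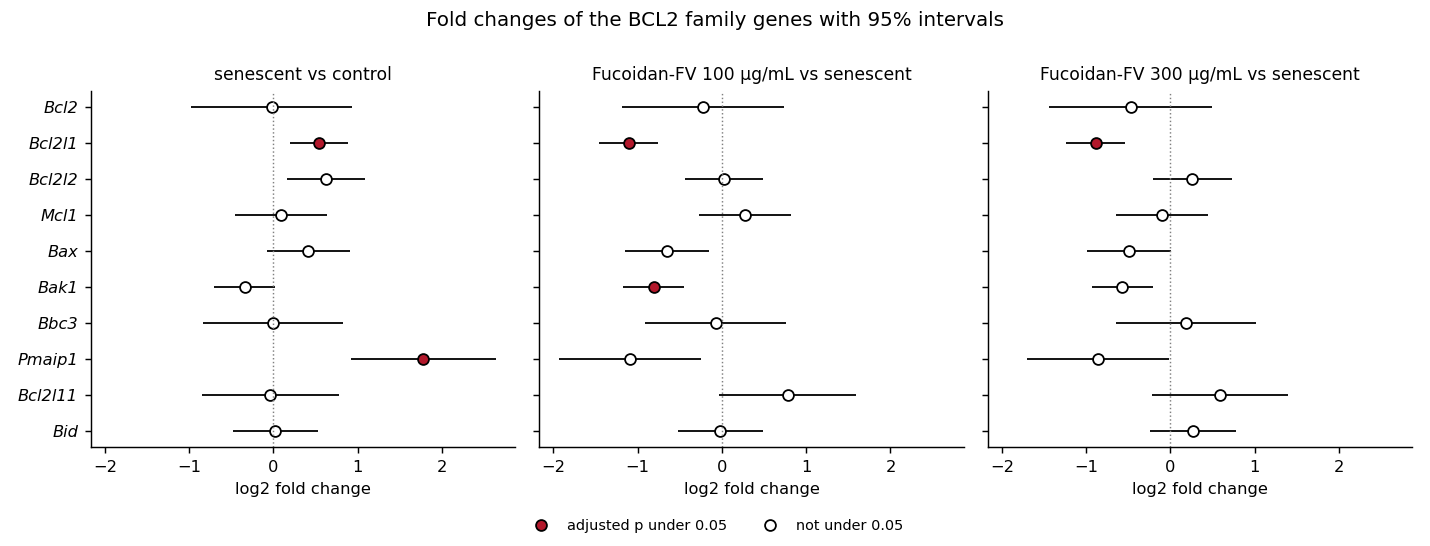
Log2 fold change of each member on the horizontal axis in senescent against control MEFs and in senescent MEFs at each dose of Fucoidan-FV against untreated senescent MEFs, from edgeR, with 95% intervals as lines; filled points have an adjusted p under 0.05. Pmaip1 (1.78) and Bcl2l1 (0.54) are filled in the first panel, Bcl2l1 (−1.10) and Bak1 (−0.81) in the second and Bcl2l1 (−0.89) in the third; both treated groups are compared with the same senescent samples.

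The next question was what Fucoidan-FV does to these genes in cells that are already senescent. At 100 μg/mL Bcl2l1 and Bak1 fell and no member rose, so 2 of 10 were called against 4.02% of all genes tested, and Bcl2l1 was a DEG (2.69% of all genes tested). The values in CPM did not overlap for 4 members, Bcl2l1, Bak1, Pmaip1 and Bax, all of them lower with Fucoidan-FV, against 26.2% of all genes tested in either direction. In TPM the ranges of Pmaip1 and Bax overlapped, and those of Bcl2l1 and Bak1 did not. At 300 μg/mL Bcl2l1 fell, which makes 1 of 10 against 1.9% of all genes tested, and no member was a DEG (1.64% of all genes tested). There 3 members, Bcl2l1, Bak1 and Pmaip1, did not overlap in CPM, against 19.6%, and Pmaip1 overlapped in TPM. The median log2 fold change of the members was −0.15 at 100 μg/mL and −0.285 at 300 μg/mL, beside −0.02 and 0.000267 over all genes tested. The doses share the senescent samples, so a high or low value in those enters both comparisons.

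With 100 μg/mL, Bcl2l1 was at 80.7, 83.5 and 86.9 CPM in mice 4, 5 and 6, against 176, 167 and 198 CPM in untreated senescent MEFs. It fell by 1.10 on the log2 scale (SE 0.16, 95% interval −1.45 to −0.76, adjusted p = 0.00427), to 0.465 of the senescent level, and was called in all 18 alternatives. At 300 μg/mL it was at 110, 95.7 and 85.9 CPM and fell by 0.89 (SE 0.16, 95% interval −1.24 to −0.54, adjusted p = 0.0146), to 0.540 of the senescent level. At that dose the call was lost without treated mouse 5 (adjusted p = 0.0682) or mouse 6 (0.114) and in the fit of the 2 groups alone (0.0807). In CPM the treated means were also below that of control MEFs. At 100 μg/mL the 3 samples lay under the lowest control of 110 CPM, and Bcl2l1 fell by 0.56 (SE 0.16, adjusted p = 0.0200). At 300 μg/mL the ranges met, and the difference was −0.35 (SE 0.16, adjusted p = 0.136). The first of these was not called without control mouse 4 (adjusted p = 0.121), 5 (0.0573) or 6 (0.173), without treated mouse 4 (0.0801) or 5 (0.0685), with library 5(2) alone (0.0941) or in the fit of all genes with at least 1 count (0.119). On the TPM scale Bcl2l1 was at 113 ± 8.40 in senescent MEFs, 72.4 ± 4.66 at 100 μg/mL and 75.4 ± 8.45 at 300 μg/mL.

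Bak1 was at 84.1, 79.3 and 90.8 CPM in mice 4, 5 and 6 with 100 μg/mL. With 300 μg/mL the same mice had 116, 93.1 and 91.6 CPM, so that all treated samples were below the lowest senescent sample of 127 CPM. It fell by 0.81 on the log2 scale at 100 μg/mL (SE 0.17, 95% interval −1.18 to −0.45, adjusted p = 0.0199), with −0.87 to −0.51 in the 18 alternatives. At 300 μg/mL the difference of −0.57 (SE 0.17, adjusted p = 0.110) was not called by edgeR, and DESeq2 called it (adjusted p = 0.0362). The call at 100 μg/mL was lost without treated mouse 4 (adjusted p = 0.0943), treated mouse 5 (0.108) or mouse 5 of the senescent group (0.0714) and in the fit of the 2 groups alone (0.124). Against control MEFs, where Bak1 was at 169 to 198 CPM, it fell at both doses, by 1.15 (SE 0.17, adjusted p = 0.000335) and by 0.91 (SE 0.17, adjusted p = 0.00176), and both calls were kept in all 18 alternatives. Bak1 thus had the order control, senescent, 300 μg/mL, 100 μg/mL, of which the step from control to senescent and the step between the doses were not called. In TPM the order was the same, with 134 ± 9.41, 108 ± 7.35, 89.9 ± 6.94 and 82.0 ± 2.74. There the treated samples did not overlap the senescent ones either, but the relative fall from senescent MEFs was smaller than in CPM. The size of the fall thus depends on the scale. Genes on the opposite strand, Ggnbp1 and Gm50253, cover 18.2% and 7.35% of its exonic bases and were counted at no more than 2.81 CPM in any sample.

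Bax was at 145, 149 and 147 CPM in mice 4, 5 and 6 with 100 μg/mL and had 160, 159 and 175 CPM with 300 μg/mL. The differences from senescent MEFs were −0.65 (SE 0.23, adjusted p = 0.131) and −0.49 (SE 0.23, adjusted p = 0.329), and without senescent mouse 6 they were −0.10 (adjusted p = 0.674) and −0.04 (adjusted p = 0.948). With the offsets they were 0.0062 (adjusted p = 0.984) and −0.0037 (adjusted p = 0.993). In CPM its treated levels were below those of control MEFs (169 to 176 CPM) in each sample at 100 μg/mL, by −0.24 (SE 0.23, adjusted p = 0.470). In TPM they were above them (376 to 459 against 338 to 370 TPM), and they overlapped those of senescent MEFs (395 to 606 TPM).

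Pmaip1 was at 239, 283 and 295 CPM in mice 4, 5 and 6 with 100 μg/mL and had 334, 332 and 290 CPM with 300 μg/mL, below each of the senescent samples of 506 CPM and more. In TPM the groups overlapped, with 244 to 488 in senescent MEFs, 236 to 277 at 100 μg/mL and 234 to 308 at 300 μg/mL. The log2 differences of −1.09 (SE 0.39, 95% interval −1.94 to −0.24, adjusted p = 0.140) and −0.86 (SE 0.39, 95% interval −1.71 to −0.02, adjusted p = 0.314) were not called. They were called in the fit of all genes with at least 1 count (adjusted p = 0.00386 and 0.0354), and in none of the other 17 alternatives. Against control MEFs the treated groups were higher by 0.69 (adjusted p = 0.214) and 0.92 (adjusted p = 0.108), neither of them called, and without control mouse 6 they were called at 1.65 (adjusted p = 0.00127) and 1.78 (adjusted p = 0.000818). Control mouse 6, at 312 CPM, lay above all treated samples but those of mice 4 and 5 at 300 μg/mL.

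Bcl2l2 was at 108, 110 and 143 CPM in mice 4, 5 and 6 with 100 μg/mL and had 163, 130 and 132 CPM with 300 μg/mL, which differed from senescent MEFs by 0.02 (95% interval −0.44 to 0.49) and 0.26 (95% interval −0.21 to 0.73). Against control MEFs, where it was at 64.3 to 96.8 CPM, it rose at both doses, by 0.65 (SE 0.22, adjusted p = 0.0414) and 0.88 (SE 0.22, adjusted p = 0.00966). The call at 300 μg/mL was kept in all 18 alternatives. That at 100 μg/mL was lost with the replicate block (adjusted p = 0.0658), without control mouse 4 (0.0506) or 5 (0.0504), and without treated mouse 4 (0.0665), 5 (0.0713) or 6 (0.145). Per length, Bcl2l2 was at 49.5 ± 15.6 TPM in senescent MEFs, 72.1 ± 3.25 TPM at 100 μg/mL and 77.2 ± 4.98 TPM at 300 μg/mL, and its TPM ranges in the treated groups lay above the senescent range of 31.8 to 61.2 TPM. Gm20521, a gene on the same strand, shares 11% of its exonic bases and was counted at 1.63 to 8.41 CPM.

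The members Mcl1, Bcl2, Bbc3, Bid and Bcl2l11, like Bax, were not called in any comparison of the 4 groups. Mcl1 was at 102, 113 and 70.2 CPM in mice 4, 5 and 6 with 100 μg/mL and had 61.3, 87.1 and 71.8 CPM with 300 μg/mL (log2 differences from senescent MEFs 0.27 and −0.10). Bcl2 was at 2.28 to 5.22 CPM and 2.24 to 4.87 CPM (−0.22 and −0.47, and with the offsets −0.85 and −0.74, with adjusted p of 0.168 and 0.271). Bbc3 was at 7.02 to 12.3 CPM and 9.89 to 15.5 CPM (−0.08 and 0.18), and Bid at 39.9 to 49.0 CPM and 42.9 to 65.5 CPM (−0.02 and 0.27). Bcl2l11 had the largest differences of these, 0.78 (SE 0.38, adjusted p = 0.271) and 0.59 (SE 0.38, adjusted p = 0.516), with 11.6, 14.5 and 28.1 CPM in mice 4, 5 and 6 with 100 μg/mL and 12.7, 16.9 and 17.8 CPM with 300 μg/mL. Without mouse 6 given 100 μg/mL the first of these was 0.31 (adjusted p = 0.690). Against control MEFs, 3 of 10 members were called at 100 μg/mL, against 26.6% of all genes tested, and 2 of 10 at 300 μg/mL, against 24.4%.

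Between the doses none of the 10 members was called by edgeR or by DESeq2, and none had an unadjusted p under 0.05. Over all genes edgeR called 1 of 15034 (0.00665%), Pif1, a helicase gene named here after its value was seen, and DESeq2 called 1 as well, while 94 genes had an unadjusted p under 0.05 in edgeR. The differences of 300 μg/mL from 100 μg/mL ran from −0.37 for Mcl1 (95% interval −0.92 to 0.18) to 0.29 for Bid (95% interval −0.22 to 0.79). For Bcl2l1 the difference was 0.22 (95% interval −0.13 to 0.56) and for Bak1 it was 0.24 (95% interval −0.12 to 0.60).

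The libraries were unlike in the levels of genes that consist almost wholly of sequence belonging to only 1 annotated transcript. Reads of such sequence were not counted apart from those of the whole gene, and the members hold unequal shares of it. Such sequence makes up 90.5% of the exonic bases of Bcl2, 75.4% of Mcl1 and 64.6% of Bbc3, but 0.914% of Bak1, 9.34% of Bcl2l1 and none of Pmaip1. Over genes with more than 95% of it, the median deviation of a library from the mean of the libraries was lowest in control mouse 6 (−1.31 on the log2 scale) and highest in mouse 5 given 100 μg/mL (0.92), and it was −1.05 in library 5(1) and 0.66 in library 5(2) of control mouse 5. Between those libraries Bcl2 differed 4.14-fold (1.69 and 6.99 CPM), Pmaip1 1.80-fold (90.9 and 164 CPM), Mcl1 1.79-fold (57.6 and 103 CPM) and Bbc3 1.43-fold (9.27 and 13.3 CPM), all higher in 5(2). Bcl2l1 was at 124 and 87.0 CPM, Bak1 at 226 and 155 CPM and Bcl2l2 at 75.1 and 59.7 CPM, all lower in 5(2). With offsets for single-transcript sequence, transcript length and GC content, Bak1 was called lower (−0.62, adjusted p = 0.00181) and Bcl2l2 higher (0.64, adjusted p = 0.00280) in senescent than in control MEFs, in addition to Pmaip1 and Bcl2l1, in a fit that called 20.9% of all genes tested.

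**Figure D3:**
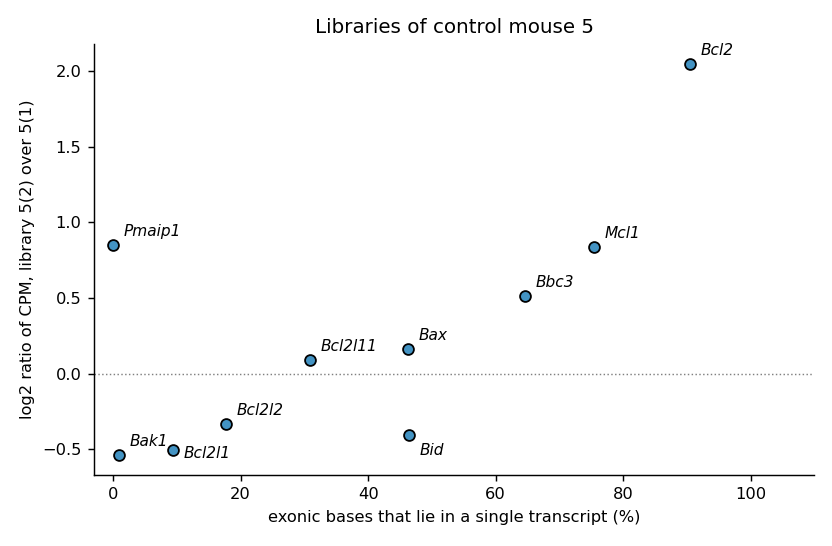
Log2 ratio of the CPM of library 5(2) over library 5(1) of control mouse 5 (vertical axis) against the share of a member's exonic bases that lie in a single transcript, in percent (horizontal axis); each point is a member. Bcl2, with 90.5% of such bases, is 4.14 times higher in library 5(2), and Bak1, with 0.914%, is at 0.687 of its level in library 5(1). Pmaip1, with 0%, is 1.80 times higher in library 5(2). Bax (46.3%) and Bid (46.4%) are at 1.12 and 0.753 of their levels in library 5(1). A link between the axes was not tested.

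To set survival RNA beside death RNA, the deposited TPM of the members was summed by class in each sample, as a description with no test. The survival genes summed to 181 ± 15.9 TPM in control, 235 ± 37.6 TPM in senescent, 246 ± 20.5 TPM at 100 μg/mL and 236 ± 20.8 TPM at 300 μg/mL. The BH3-only genes summed to 164 ± 94.8, 425 ± 124, 319 ± 23.7 and 343 ± 30.7 TPM in the same order, and the effectors to 483 ± 12.97, 581 ± 111, 508 ± 45.9 and 521 ± 44.5 TPM. Each BH3-only sum of a senescent sample (449, 534 and 290 TPM in mice 4, 5 and 6) was above each control sum (94.2, 125 and 272 TPM), and mouse 6 had the closest pair. The survival genes made 22.1 ± 3.38% of the sum of all 10 in control, 18.9 ± 2.86% in senescent, 23.0 ± 0.154% at 100 μg/mL and 21.4 ± 1.23% at 300 μg/mL. Control and senescent samples overlapped in this share (18.5 to 25.3% and 16.2 to 21.9%), while the 3 samples at 100 μg/mL (22.8 to 23.1%) lay above the senescent ones. Pmaip1 alone made 13.4 ± 9.03% of the sum in control and 29.9 ± 8.53% in senescent MEFs. On the TPM scale the survival sum at 100 μg/mL was within the SD of the senescent sum although Bcl2l1 had fallen. Mcl1 was at 101 ± 17.2 TPM and Bcl2l2 at 72.1 ± 3.25 TPM there. In senescent MEFs they were at 70.7 ± 16.2 and 49.5 ± 15.6 TPM, and neither difference was called on counts. This did not hold in CPM, where the mean of Bcl2l1 went from 180 in senescent MEFs to 83.7 at 100 μg/mL. The means of Mcl1 (78.6 and 94.8 CPM), Bcl2l2 (118 and 120 CPM) and Bcl2 (4.49 and 3.85 CPM) did not make up for that. The survival sum was thus lower in CPM at 100 μg/mL, and the TPM sums do not show that survival RNA was kept up.

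**Figure D4:**
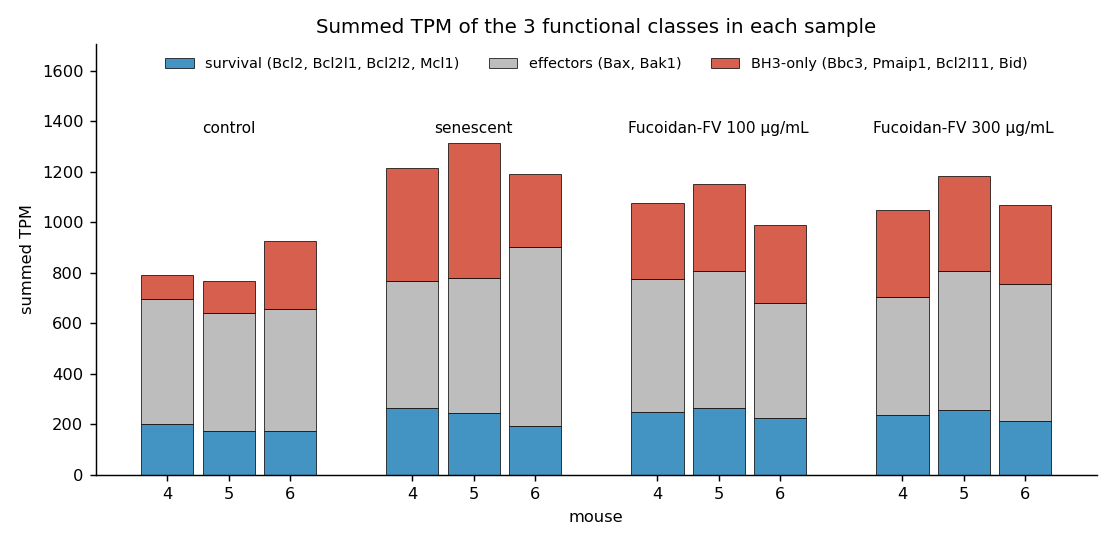
Summed TPM (vertical axis, from 0) of the survival, effector and BH3-only members in each of the 12 samples, grouped by condition and labelled by mouse. The whole bars are 767 to 927 TPM in control MEFs, 1191 to 1313 TPM in senescent MEFs and 989 to 1182 TPM with Fucoidan-FV, and the BH3-only part is largest in senescent mice 4 and 5.

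Of 15 further genes of the BCL2 family, 8 had too few counts to be tested (Bcl2a1a, Bcl2a1b, Bcl2a1d, Bcl2l10, Bik, Hrk, Bcl2l14 and Bcl2l15). Of the 7 tested, Bnip3 and Bnip3l, whose products mark mitochondria for autophagy, rose in senescent against control MEFs and none fell. Among all genes tested 11.7% were called there. Bnip3l rose from 99.3 ± 23.6 to 194 ± 41.0 CPM (by 0.97 on the log2 scale, SE 0.25, adjusted p = 0.0226), a call that was lost without control mouse 4 (adjusted p = 0.0567) or 5 (0.0510). Bnip3 was at 36.7 ± 14.0 and 68.4 ± 19.4 CPM (0.90, adjusted p = 0.0451), with groups that overlapped. It was called in 9 of 18 alternatives and not with the replicate block (adjusted p = 0.0610), without control mouse 4 (0.163) or 6 (0.141) or without mouse 4 (0.184) or 5 (0.0888) of the senescent group, and with library 5(2) alone its log2 fold change was 0.51 (0.456). None of the 7 was called by edgeR at either dose against senescent MEFs (3 of 7 had an unadjusted p under 0.05 at each dose), and DESeq2 called 1 at each dose. Bad, a BH3-only gene controlled by phosphorylation of its protein, was at 29.1 ± 1.05 CPM in control and 44.0 ± 20.8 CPM in senescent MEFs (0.60, adjusted p = 0.222), where mouse 6 had 67.9 CPM and mice 4 and 5 had 29.8 and 34.4 CPM.

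Of the 9 tested regulators upstream of the family, 2 rose and 2 fell in senescent MEFs, where 11.7% of all genes tested were called. Mdm2, which encodes the ubiquitin ligase of p53, rose from 166 ± 56.3 to 481 ± 127 CPM (by 1.53 on the log2 scale, SE 0.25, adjusted p = 0.00174) and Ddit3, which encodes the stress factor CHOP, rose from 20.0 ± 2.14 to 51.9 ± 23.0 CPM (1.38, SE 0.29, adjusted p = 0.00808). The call of Ddit3 was lost without control mouse 4 (adjusted p = 0.0517) and with library 5(2) alone (0.0621), and senescent mouse 6 had 78.4 CPM against 38.2 and 39.1 CPM in mice 4 and 5. Trp53 itself, the gene of p53, fell from 200 ± 9.25 to 118 ± 5.30 CPM (−0.77, SE 0.17, adjusted p = 0.0112), and Myc fell from 131 ± 30.7 to 67.2 ± 9.41 CPM (−0.96, SE 0.20, adjusted p = 0.00770). Myc, a growth regulator that also primes cells for death, was the 1 gene of this list that edgeR called at either dose, while DESeq2 called 2 at each, at 300 μg/mL also Ddit3 (−1.01, adjusted p = 0.0241). Myc fell to 28.8 ± 1.47 CPM at 100 μg/mL (−1.22, SE 0.20, adjusted p = 0.00765) and to 33.1 ± 4.26 CPM at 300 μg/mL (−1.02, SE 0.20, adjusted p = 0.0243), the latter not called without treated mouse 5 (adjusted p = 0.101), treated mouse 6 (0.138) or mouse 5 of the senescent group (0.0532).

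Of 12 further p53 target genes, 7 rose in senescent MEFs and none fell, where 11.7% of all genes tested were called in either direction. Their median log2 fold change was 1.19 against 0.07 over all genes tested. Cdkn1a, which encodes the cell cycle inhibitor p21, rose by 1.82 (SE 0.18, adjusted p = 6.8e-05) and Trp53inp1, a p53-induced regulator of stress and autophagy, by 1.94 (SE 0.44, adjusted p = 0.0121), the latter not called without control mouse 5 (adjusted p = 0.0511). Perp, whose product takes part in p53-dependent death and cell adhesion, was at 0 to 0.127 CPM in control mice (5 counts or fewer) and at 2.46 to 8.02 CPM in senescent mice, and all of its bases lie in a single transcript. Neither the main fit of edgeR nor DESeq2 called any of the 12 at either dose against senescent MEFs, and an unadjusted p under 0.05 was found for 1 gene at the lower dose and for 0 at the higher one in edgeR. Trp53inp1 was called higher than in senescent MEFs with the offsets at both doses (adjusted p = 0.0377 and 0.0401), and at 300 μg/mL also in the fit of all genes with at least 1 count (0.0188). Among the members, 3 are commonly counted as p53 targets, and only Pmaip1 of them was called in senescent MEFs, while Bax and Bbc3 were not.

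Downstream of the mitochondria, 1 of 14 genes of the apoptosome and caspase list was called in senescent MEFs, where 11.7% of all genes tested were. This was Casp2, a caspase linked to DNA damage, which fell from 13.5 ± 3.08 to 3.75 ± 1.05 CPM (−1.85, SE 0.35, adjusted p = 0.00406). Cytochrome c (Cycs) was at 85.1 ± 12.7 and 62.1 ± 22.7 CPM, Apaf1 at 77.6 ± 31.9 and 76.5 ± 42.7 CPM and Casp9 at 8.73 ± 3.07 and 5.15 ± 0.432 CPM in control and senescent MEFs, none of them called. At 100 μg/mL Vdac2, which encodes the channel that holds BAK at the outer mitochondrial membrane, fell from 313 ± 65.1 to 179 ± 14.4 CPM (−0.80, SE 0.18, adjusted p = 0.0265). Its call was lost without any 1 of the treated mice 4 (adjusted p = 0.128), 5 (0.125) and 6 (0.0529) or senescent mice 5 (0.0590) and 6 (0.0559), and without the last its log2 fold change was −0.48. At 300 μg/mL it was at 195 ± 18.7 CPM (−0.68, adjusted p = 0.0735), and no gene of this list was called by edgeR at that dose, with 6 of 14 at an unadjusted p under 0.05 and 2 called by DESeq2. Casp9 at 100 μg/mL (11.9 ± 1.16 CPM) was higher than in senescent MEFs by 1.21 (SE 0.33, adjusted p = 0.0567), which was not called in the main fit and was called in 5 of 18 alternatives, DESeq2 among them.

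The remaining lists held 1 call each in senescent MEFs and none at either dose in the main fit. Of all genes tested, 11.7% were called in senescent MEFs, 4.02% at 100 μg/mL and 1.9% at 300 μg/mL. Of the 5 inhibitors of apoptosis, Birc5, which encodes survivin and is made in dividing cells, fell from 36.0 ± 8.97 to 2.09 ± 1.96 CPM (−4.09, SE 0.92, adjusted p = 0.0113; 0.0519 without senescent mouse 4), while Xiap, the direct caspase inhibitor, was at 89.4 ± 35.1 and 87.1 ± 46.5 CPM. Of the 8 genes of the death receptor arm, Fas rose from 4.30 ± 0.592 to 49.8 ± 5.97 CPM (3.53, SE 0.24, adjusted p = 7.59e-06). Fas was at 73.2 ± 20.2 CPM at 100 μg/mL and 77.8 ± 7.67 CPM at 300 μg/mL. These differences from senescent MEFs, 0.56 (adjusted p = 0.173) and 0.64 (adjusted p = 0.159), were not called in the main fit. Each was called in 3 of 18 alternatives, among them DESeq2 (adjusted p = 0.0426 and 0.0453). Of the 7 genes that control the turnover of the MCL1 protein, the ubiquitin ligase gene Trim17 rose from 4.98 ± 0.437 to 12.5 ± 3.38 CPM (1.33, SE 0.32, adjusted p = 0.0161). At an unadjusted p under 0.05 edgeR had 0, 2 and 1 of these lists' genes at 100 μg/mL and 0, 2 and 0 at 300 μg/mL, and DESeq2 called 0, 2 and 1 and 0, 1 and 0.

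**Figure D5:**
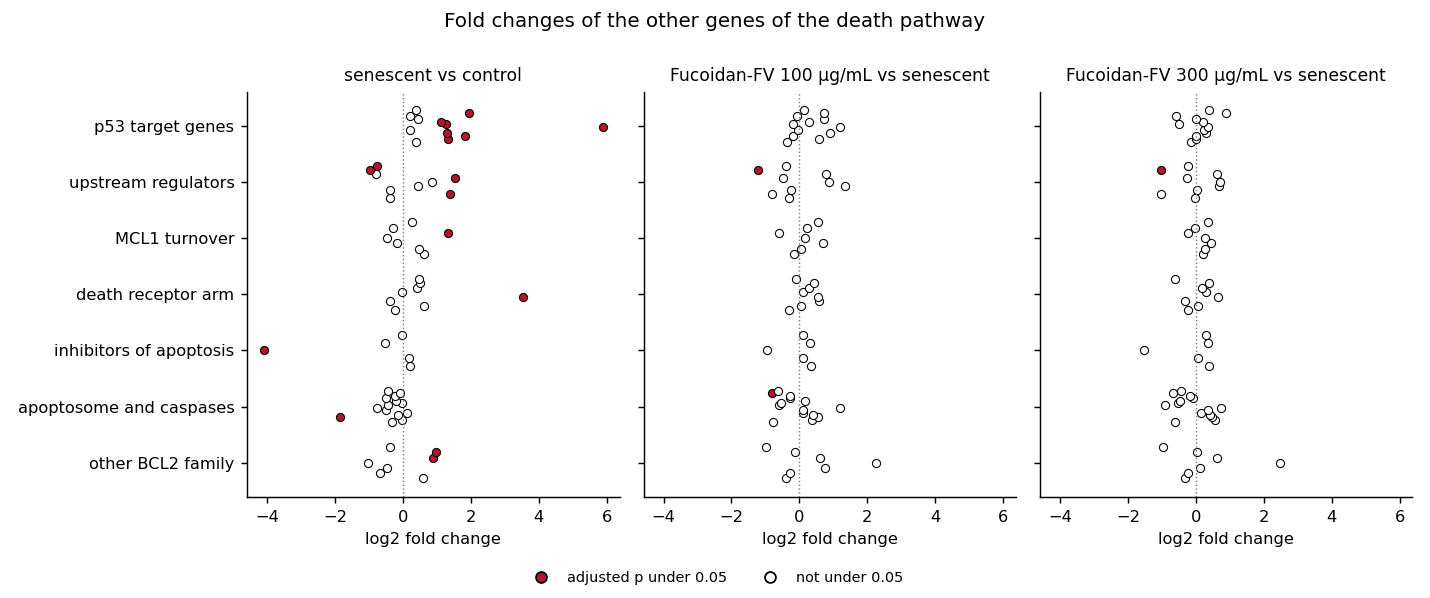
Log2 fold change (horizontal axis) of the tested genes of 7 other lists of the death pathway in senescent against control MEFs and at each dose of Fucoidan-FV against senescent MEFs; each point is a gene, spread vertically within its list, and filled points have an adjusted p under 0.05. In the first panel 7 of the 12 p53 target genes are filled, all to the right of 0, and the dose panels hold 2 filled points (Myc and Vdac2) and 1 (Myc), all to the left of 0.

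Across the 12 samples the genes most like a member were described by Pearson's r of log2 CPM, over samples that share a library preparation, a group and a depth, so that r says nothing of shared control. For Bcl2l1 these were Arhgef5 (0.963) and Gss (0.953), and for Bak1 they were Qars1 (0.988) and Bcar1 (0.984). Pmaip1 was most like Mdga1 (0.944) and Fbxl2 (0.943), and Bcl2l2 was most like Zfyve1 (0.983) and Eif4a2 (0.982). For Bax they were Bri3 (0.981) and Elob (0.965), for Mcl1 Fzd7 and Ppp2r3c (both 0.979), for Bcl2 Ap2m1-ps (0.911) and Dusp4 (0.893), for Bbc3 Ankrd9 (0.910) and Dynlt2b (0.870), for Bcl2l11 Nrk (0.924) and Svil (0.916), and for Bid Gm17484 (0.847) and Bicd1 (0.846). Among the members themselves the highest r was 0.721, between Bcl2l2 and Pmaip1, followed by 0.715 between Bak1 and Bcl2l1, and the lowest was −0.694, between Bax and Bcl2l11.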

How the data were processed

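RNA of 13 libraries (TruSeq Stranded Total RNA, which marks strand) was sequenced from 4 groups of 3 mice. Per the labels and the submitters' processing notes the authors used Trimmomatic, STAR 2.7.11b on GRCm39 and RSEM 1.3.1; whether reads were counted by strand is not given in the sources used here. They deposited RSEM's expected counts, which are not normalized, and TPM, which are normalized for length and library size.

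Expected counts were rounded, libraries 5(1) and 5(2) summed (TPM averaged), and the 12 samples tested with edgeR 4.0.16 in R 4.3.3 (filterByExpr with a minimum count of 10 and a minimum total of 15, TMM, quasi-likelihood, Benjamini-Hochberg over 15034 genes). Alternatives were DESeq2 1.42.0, RLE factors, other filters, 2 groups alone, either library of control mouse 5, a replicate block, offsets for single-transcript sequence, length and GC, and each sample left out. The test was checked on simulated counts. The labels number samples by mouse, and samples of 1 number were not blocked in the main fit but in an alternative; deviations from group means correlated at over 0.1 in 8 of 18 pairs (median −0.00627). Named are the members and, per other list, the called genes (at most 3 per comparison, by adjusted p) with 10 core genes, 1 of which is not reported here. Members, lists and tests were chosen with earlier results of these data known.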

Additional observations from a re-analysis of the deposited data

How the results depend on the processing

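Of 1080 values of members under alternatives, 98 had the other sign and none of these was called. Of the 10 calls of members in the main fit, 4 were kept in all 18 alternatives. Beside each number of members called, the genes called among all genes tested are given in parentheses. For senescent against control MEFs the number was 2 in the main fit (1765 of 15034). It was 0 with these 2 groups alone (765 of 13709) and 1 without a filter beyond 1 count (1977 of 27238). It was 1 with library 5(1) alone (1881 of 15030), with library 5(2) alone (1459 of 14976) or with the replicate block (1522 of 15034). Where a log2 fold change beyond 1 was also required it was 1 (1266 of 15034). With the offsets it was 4 (20.9%), also with offsets and replicate block together (20.6%). With each library left out it was 0 to 4 (from 1172 of 15605 to 2684 of 15490). For 100 μg/mL against senescent MEFs the number was 2 in the main fit (605 of 15034) and 1 with 2 groups alone (170 of 14400). It was 1 beyond a log2 fold change of 1 (405 of 15034) and 1 to 2 with each library left out (from 139 of 15454 to 493 of 15541). For 300 μg/mL against senescent MEFs the number was 1 in the main fit (286 of 15034). It was 2 with DESeq2 (935 of 15034), 2 without the filter (782 of 27238) and 0 with 2 groups alone (101 of 14011). It was 0 beyond a log2 fold change of 1 (246 of 15034) and 0 to 1 with each library left out (from 46 of 15554 to 277 of 15541). Against control MEFs it was, at 100 and 300 μg/mL, 5 and 4 with the offsets (36.2% and 34.5%). The numbers were the same with offsets and replicate block together (35.7% and 33.7%). Beyond a log2 fold change of 1 they were 1 and 0 (2955 and 2704 of 15034). At 100 μg/mL it was 1 to 3 with each library left out (from 2671 of 15454 to 3616 of 15596). Beside Bcl2l1 in senescent against control MEFs and Bcl2l2 at 100 μg/mL against control MEFs, the replicate block ended no call of a member. The survival share of the members' sum in CPM was 32.4% in control, 27.3% in senescent, 34.5% at 100 μg/mL and 32.2% at 300 μg/mL; without Bcl2l1 and Pmaip1 the TPM share was 15.9% in control and 23.3% at 100 μg/mL. In fits of 2 groups alone the calls of Bnip3, Bnip3l, Trim17, Trp53inp1 and Vdac2 were lost, as were those of Myc but for that at 100 μg/mL. The cause was not tested. Bcl2 was counted at only 54 to 213 per sample.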

Other observations

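Bok and Bmf, 2 of the 7 further BCL2 family genes tested, are outside the rule for named genes and were chosen after their values were seen. Bok, an effector-like relative of Bax, was at 78.1 ± 14.3 CPM in control, 59.6 ± 29.3 CPM in senescent, 29.8 ± 1.42 CPM at 100 μg/mL and 30.3 ± 2.71 CPM at 300 μg/mL. It fell against control MEFs at both doses, by 1.39 (adjusted p = 0.00315) and 1.37 (adjusted p = 0.00377) on the log2 scale with an SE of 0.29 for each, and its difference of −0.999 from senescent MEFs at 100 μg/mL was not called (adjusted p = 0.0660). Senescent mouse 6 had 93.3 CPM of Bok, above mice 4 and 5 with 40.2 and 45.2 CPM. Bmf, a BH3-only gene, was at 0.374 to 0.905 CPM in senescent MEFs and at 2.80 to 3.63 CPM and 3.09 to 4.44 CPM at 100 and 300 μg/mL, without overlap, but at 0 to 2.42 CPM in control MEFs. Its differences from senescent MEFs, 2.27 (adjusted p = 0.203) and 2.46 (adjusted p = 0.225) on the log2 scale, were not called.

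Against control MEFs, 7 of the 14 genes of the apoptosome and caspase list fell at 100 μg/mL (26.6% of all genes tested were called in either direction) and 6 of 14 fell at 300 μg/mL (24.4%), and none rose. At 100 μg/mL they were Cycs (−1.04), the mitochondrial protease gene Htra2 (−0.79), Aifm1 (−1.12), which encodes apoptosis-inducing factor, the channel genes Vdac1 (−0.53), Vdac2 (−0.88) and Vdac3 (−1.06), and Casp2 (−1.29). At 300 μg/mL the same genes but Vdac1 were called. Adjusted p ran from 0.00156 to 0.0196 at 100 μg/mL and from 0.00186 to 0.0353 at 300 μg/mL. These calls were not followed through the alternatives. Htra2, Aifm1, Vdac1 and Vdac3 are outside the rule for named genes and are given because they were called here.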
